A study of Mus musculus with 24 samples.

Results

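Striatal gene expression of R6/1 mice was compared with that of wild type (WT) littermates when mice of both genotypes had received RGFP109, an inhibitor of the histone deacetylases HDAC1 and HDAC3. The comparison covered every gene with at least 1 FPKM (mapped fragments scaled by transcript length and by the size of the library) in WT-RGFP109 or in R6/1-RGFP109, which held for 13870 of the 24341 genes in the deposited table. R6/1 mice carry, in the hemizygous state, a human HTT exon 1 whose CAG repeat is expanded, on a C57BL/6J background, and keep both copies of mouse Htt. WT-RGFP109 comprised 6 libraries and R6/1-RGFP109 comprised 7. RGFP109 was injected intraperitoneally at 30 mg/kg, 5 times a week for 3 weeks, into male mice aged 11 to 14 weeks at the start and 14 to 17 weeks at sacrifice, and the striatum was taken 18 h after the last injection. The vehicle groups, WT-vehicle with 5 libraries and R6/1-vehicle with 6, received the solvent on the same schedule and are used here to set their values beside those under RGFP109. The groups share no mouse. The exon 1 transgene carries its own human promoter fragment and is expressed widely, so the model is not limited to the striatum.

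The deposited table holds a single FPKM value per group, with no value per mouse, no counts and no depth. The columns of the authors' own statistical comparison were not used, so no error or test over mice is given for any gene, and every difference below describes these group values. Differences are given as log2((R6/1 + 0.05)/(WT + 0.05)), and a gene is called lower or higher when the difference exceeds 0.5 on the log2 scale, a ratio of 1.41. Since striatum was measured as bulk tissue, fewer cells of a type and less RNA per cell cannot be told apart.

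Huntington's disease strikes the striatum hardest. Most of its neurons are GABAergic projection neurons, which form an indirect pathway marked by dopamine D2 and adenosine A2a receptors and enkephalin, and a direct pathway marked by dopamine D1 receptors, dynorphin and substance P. Both depend on a cyclic AMP and DARPP-32 signalling system, and loss of its transcripts is the best known molecular mark of the disease in mice. HDAC1 and HDAC3 remove acetyl groups from histones as parts of large corepressor complexes, and they are tested as drug targets because silenced neuronal genes might be relieved when they are inhibited.

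Of the 13870 genes, 1288 were lower in R6/1-RGFP109 (9.29% of those compared) and 528 were higher (3.81%). At the stricter call of 1 on the log2 scale, 389 were lower (2.8%) and 177 higher (1.28%). The median difference over all genes was 0.01, and the middle 90% of genes lay between -0.74 and 0.43. Genes of small RNAs, recognised by symbols that start with Mir, Snor, Scarna, Rnu or n-R, made up 464 of the genes. Of them 169 were called lower and 172 higher. Because inclusion needs 1 FPKM in a single group, 295 genes were included through R6/1-RGFP109 alone and 419 through WT-RGFP109 alone. Of the 13156 genes at 1 FPKM in both groups, 991 were lower (7.53%) and 324 higher (2.46%). All 175 of the genes listed at 0 in either group were small RNA genes. Without small RNA genes, 1119 genes were lower and 356 higher, so that 75.9% of the called genes were lower. Lower genes outnumbered higher genes most among abundant transcripts. Of 1823 genes at 50 FPKM or more, 187 were lower and 9 higher, whereas of 1279 genes between 1 and 2 FPKM, 209 were lower and 117 higher. The rule for inclusion is a threshold, and Galnt12, at 1.00 and 0.829 FPKM, was the gene just inside it, while D330050I16Rik, at 0.693 and 0.9997 FPKM, was the gene just outside.

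**Figure D1:**
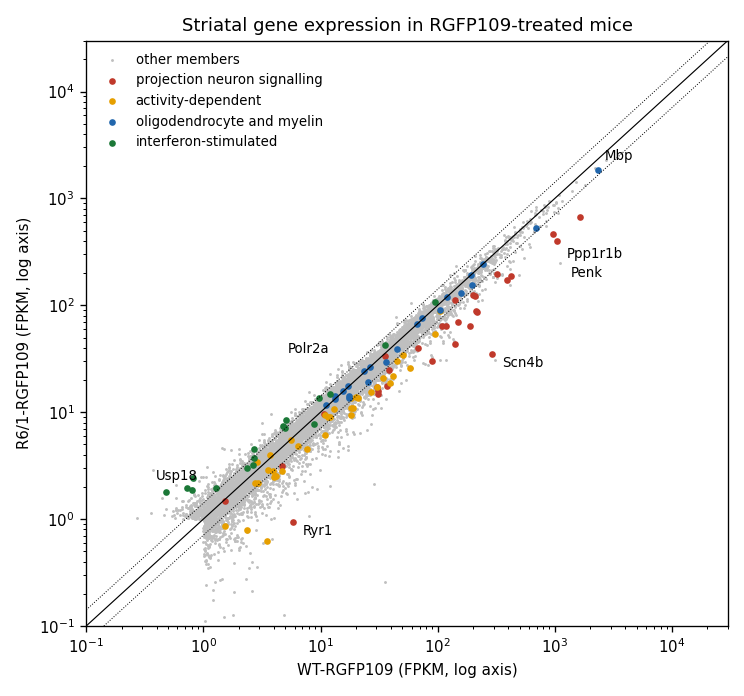
FPKM of each gene in R6/1-RGFP109 against WT-RGFP109, both on log axes, with small RNA genes left out. Each point is a gene, the solid line marks equal values and the dotted lines the call of 0.5 on the log2 scale; projection neuron signalling genes lie below the lower dotted line in 25 of 29 cases, and oligodendrocyte and myelin genes in 0 of 22.

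Of the 15 most negative differences among genes at 5 FPKM or more, 4 were in the lists of projection neuron genes, namely Scn4b, Ryr1, Penk and Adora2a. Ryr1 is given further on, and others, such as S100a5, Omp and Ttr, are given further on with their tissues. Scn4b, the beta-4 subunit of the voltage-gated sodium channel, had 289 FPKM in WT-RGFP109 and 35.4 FPKM in R6/1-RGFP109, a difference of -3.03. Penk, which encodes proenkephalin, had 1116 and 247 FPKM, a difference of -2.17. Adora2a, the adenosine A2a receptor, had 119 and 31.1 FPKM (-1.93). Drd2, the dopamine D2 receptor, was not among the 15 and had 87.2 and 34.6 FPKM (-1.33). All of these lay past the stricter call.

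Abhd11os, a non-coding transcript whose locus overlaps that of another gene, had 28.7 and 2.11 FPKM (-3.73), and with a kit that does not mark strand the overlapping transcripts cannot be told apart. Ptprv, a receptor-type phosphatase (8.03 and 1.08 FPKM, -2.84), Ddit4l, a repressor of mTOR signalling (9.30 and 1.92 FPKM, -2.25), Abi3bp, an extracellular matrix protein (7.79 and 1.79 FPKM, -2.09), Nrn1l, a relative of neuritin (7.44 and 1.75 FPKM, -2.06), and 1700001O22Rik (6.30 and 1.55 FPKM, -1.99) were also among the 15 most negative genes at 5 FPKM or more. Gm24148, in a locus shared by 4 genes, had 11.95 and 2.05 FPKM (-2.51).

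Of 7 indirect-pathway genes that were included, 5 were lower and none higher, with a median difference of -1.34, where 9.29% of all genes were lower. The orphan receptor genes Gpr6 (48.2 and 18.8 FPKM, -1.36) and Gpr52 (30.7 and 12.1 FPKM, -1.34) were among them. Grik3, a kainate receptor subunit, and the transcription factor gene Sp9 differed by only -0.17 and -0.14. Of 10 direct-pathway genes, 5 were lower and none higher, with a median of -0.56. Drd1, the dopamine D1 receptor, had 60.5 and 26.2 FPKM (-1.21), and Chrm4, the muscarinic M4 receptor that opposes it, had 40.9 and 18.3 FPKM (-1.15). Pdyn, the dynorphin precursor, had 67.3 and 37.3 FPKM (-0.85). Tac1, the substance P precursor, had 247 and 182 FPKM, and its difference of -0.43 did not reach the call. The developmental transcription factor genes Isl1 (0.41), Ebf1 (0.40) and Eya1 (0.43) had positive differences short of the call. The genes that define the indirect pathway thus differed more between genotypes than those of the direct pathway, as group values with no test. With vehicle, 3 of the 10 direct-pathway genes were lower and 1 higher, with a median of -0.25. In 3 of the 10 the difference was less negative or more positive under RGFP109. The 7 indirect-pathway genes gave 5 lower and none higher with vehicle, with a median of -1.29.

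Of the signalling genes shared by both pathways, 25 of 29 were lower and none higher, with a median of -1.04, against 9.29% lower among all genes. At 1 FPKM in both groups 24 of 28 were lower, against 7.53% of all such genes. In the cyclic AMP branch 10 of 12 were lower. Ppp1r1b, which encodes DARPP-32, the phosphatase inhibitor on which dopamine and glutamate signals converge, had 1044 FPKM in WT-RGFP109 and 399 FPKM in R6/1-RGFP109 (-1.39). Pde10a, the phosphodiesterase that breaks down cyclic nucleotides in these neurons, had 140 and 43.6 FPKM (-1.68), and Rgs9, which speeds the shut-off of dopamine receptor signalling, had 189 and 64.7 FPKM (-1.55). Adcy5, the main striatal adenylyl cyclase, had 211 and 89.4 FPKM (-1.24). Rasd2, which encodes the striatal GTPase Rhes, had 218 and 85.9 FPKM (-1.34). Gnal, the G protein that couples D1 and A2a receptors to the cyclase, and Prkar2b, a regulatory subunit of protein kinase A, differed by -0.32 and -0.06 and were not called.

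All 9 calcium and kinase genes were lower. Ryr1, a calcium release channel of the endoplasmic reticulum, had 5.82 and 0.940 FPKM (-2.57) at a locus shared by 2 genes. It was included through WT-RGFP109 alone. Rasgrp2, a calcium-regulated activator of Rap GTPases, had 89.9 and 30.4 FPKM (-1.56), and Pcp4, a calmodulin-binding peptide, had 1645 and 675 FPKM (-1.29). Among channels and receptors 6 of 8 were lower, Cnr1, the cannabinoid CB1 receptor, with 37.0 and 17.5 FPKM (-1.08) and Kcnip2, a potassium channel-interacting protein, with 151 and 70.5 FPKM (-1.09). Kcna4 (-0.17) and Oprm1, the mu opioid receptor (-0.06), were not called.

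**Figure D2:**
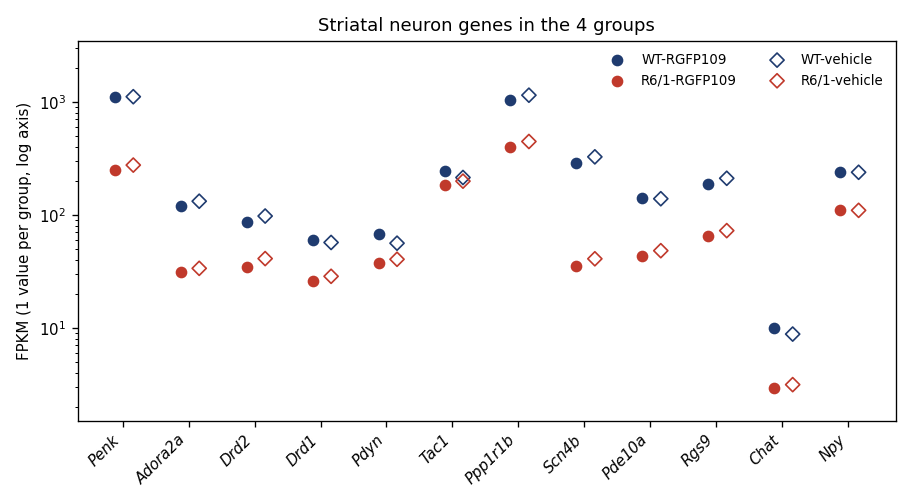
FPKM of 12 striatal neuron genes in each group on a log axis, filled circles for the RGFP109 groups and open diamonds for the vehicle groups, with 1 value per group and no error. In every one of the 12 genes R6/1 lies below WT with drug and with vehicle, and Tac1 shows the smallest gap.

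Transcription factors that specify striatal neurons differed less than the genes they are known for. Of 15, 3 were lower and 1 higher, with a median of -0.24, where 9.29% of all genes were lower and 3.81% higher. Rxrg, a retinoid receptor, had 49.0 and 27.3 FPKM (-0.85), and Rarb (-0.54) and Foxo1 (-0.54) were also lower. Bcl11b, which encodes Ctip2, had 30.9 and 22.7 FPKM (-0.44), and Foxp1 had 27.4 and 21.1 FPKM (-0.38), both short of the call. Foxp2 (-0.12), Mef2c (-0.09) and Six3 (-0.04) were close to equal. Onecut2 was the member that was higher, at 1.10 and 1.99 FPKM (0.83).

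Activity-dependent genes are switched on within minutes of synaptic input and calcium entry, in part through the transcription factor CREB. Of 37 included, 23 were lower and none higher, with a median of -0.68, where 9.29% of all genes were lower. Of the 34 at 1 FPKM in both groups 20 were lower, against 7.53% of all such genes. The transcription factor genes and the effector genes gave nearly the same shares, 11 of 18 and 12 of 19. Egr2 had 3.52 and 0.623 FPKM (-2.41), Arc, which encodes a synaptic regulator of glutamate receptors, had 58.3 and 25.7 FPKM (-1.18), and Nr4a1, an orphan nuclear receptor, had 41.4 and 21.8 FPKM (-0.92). Npas4, a neuron-specific activity-dependent factor, had 10.9 and 6.09 FPKM (-0.83), and Egr1 had 95.5 and 53.8 FPKM (-0.83). Inhba (-1.52), Dusp14 (-1.07) and Nptx2 (-0.95) were lower among the effectors. Egr2 and Inhba were included through WT-RGFP109 alone. Fos, with 10.8 and 9.41 FPKM (-0.20), and Fosb, with 3.71 and 3.95 FPKM (0.09), were not called, so that the decrease was not shared by the whole class.

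CREB binds a half-site that reads TGACG. This was looked for on either strand in the 250 bases before each RefSeq transcription start (GRCm38.p6, the build also named mm10), and a gene with several starts was counted once if any of its windows held a match. Windows were matched for 10185 of the 13870 genes, and 30.8% of these held the half-site. Among activity-dependent genes it was found in 16 of 25 matched genes (64.0%) and among projection neuron signalling genes in 4 of 24 (16.7%). Within the activity-dependent list, 8 of the 16 genes with the half-site and 7 of the 9 without it were lower, with medians of -0.52 and -0.73. Among striatal interneuron genes it was found in 7 of 13 (53.8%), among all lower genes in 23.4% and among all higher genes in 22.2%. Frequent occurrence was thus not limited to the activity-dependent list, and within that list the half-site did not separate the lower members from the others. A match describes letters, not binding.

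The windows of Nr4a1 and Npas4 are shown as activity-dependent genes that hold the half-site, and those of Scn4b and Ryr1 as the signalling genes with the largest differences, in which these letters were not found. Bases are written 5′ to 3′ on the strand of the gene, with each half-site in capitals, as CGTCA where it lies on the opposite strand. Adjacent matches on both strands can form 1 palindrome. Nr4a1 (chr15:101266596-101266845, plus strand) held 4 matches, all on the opposite strand, and Npas4 (chr19:4989972-4990221, minus strand) held 1 on each strand. Scn4b (chr9:45138374-45138623, plus strand) and Ryr1 (chr7:29125152-29125401, minus strand) held none.
Nr4a1: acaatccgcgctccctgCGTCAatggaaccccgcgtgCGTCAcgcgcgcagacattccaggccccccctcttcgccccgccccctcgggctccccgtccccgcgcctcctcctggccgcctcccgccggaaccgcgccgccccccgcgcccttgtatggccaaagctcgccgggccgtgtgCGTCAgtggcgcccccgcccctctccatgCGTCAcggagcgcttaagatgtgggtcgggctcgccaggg
Npas4: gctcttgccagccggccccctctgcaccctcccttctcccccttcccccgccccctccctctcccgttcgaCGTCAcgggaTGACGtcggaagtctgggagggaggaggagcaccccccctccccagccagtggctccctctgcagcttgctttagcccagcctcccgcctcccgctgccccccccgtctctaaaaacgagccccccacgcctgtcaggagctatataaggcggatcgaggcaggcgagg
Scn4b: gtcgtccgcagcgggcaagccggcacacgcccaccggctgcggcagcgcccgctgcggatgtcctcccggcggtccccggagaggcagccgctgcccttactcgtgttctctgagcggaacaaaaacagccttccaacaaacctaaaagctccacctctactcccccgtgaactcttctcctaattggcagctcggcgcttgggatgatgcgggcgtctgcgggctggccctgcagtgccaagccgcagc
Ryr1: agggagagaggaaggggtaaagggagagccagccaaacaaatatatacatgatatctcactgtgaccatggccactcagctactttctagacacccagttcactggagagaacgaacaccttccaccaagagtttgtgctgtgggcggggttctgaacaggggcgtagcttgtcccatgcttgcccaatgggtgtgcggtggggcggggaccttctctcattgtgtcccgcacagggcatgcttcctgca

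Interneurons are a small share of striatal neurons, and their genes were lower almost without exception. Of 17 genes, 16 were lower and none higher, with a median of -0.95, where 9.29% of all genes were lower. With vehicle 13 were lower. Cholinergic genes led the list. Chat, choline acetyltransferase, had 9.86 and 2.89 FPKM (-1.75), and Slc5a7, the choline transporter, had 6.01 and 2.17 FPKM (-1.45). The peptide genes Npy (238 and 111 FPKM, -1.10) and Sst (620 and 355 FPKM, -0.80) were lower, as was Pvalb, the calcium buffer of fast-spiking cells (47.4 and 24.6 FPKM, -0.95). Th, tyrosine hydroxylase, had 9.18 and 3.76 FPKM (-1.27) under RGFP109, against 4.45 and 4.36 FPKM with vehicle. Calb2, which encodes calretinin, had 30.2 and 16.4 FPKM (-0.88), against 21.5 and 14.9 FPKM with vehicle (-0.52). The level of both in WT-RGFP109 was the highest of the 4 groups. Lhx6, a transcription factor of these lineages, had a difference of -0.41 and was the member that was not called. Several genes of the list, Vip and Cck among them, are also expressed in neocortex, and Th and Calb2 in olfactory bulb. Marker genes of both tissues are given further on, and the part of these tissues in the values of the list was not tested.

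Genes found in all neurons differed less. Of 15, 2 were lower, the neurofilament genes Nefm (-0.84) and Nefh (-0.51), a share near the 9.29% of all genes. The median over the list was -0.27. The GABA synthesis gene Gad1 had a difference of -0.34, and Slc32a1, the vesicular GABA transporter, had 103 and 102 FPKM (-0.01).

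Channel and receptor families differed among themselves. Of 70 potassium channel genes, 20 were lower and none higher, where 9.29% of all genes were lower. At 1 FPKM in both groups 18 of 68 were lower, against 7.53% of all such genes. Kcnh4 had 14.2 and 3.78 FPKM (-1.90), and Kcnh3 had 62.6 and 30.7 FPKM (-1.03). Of 17 regulators of G protein signalling, 8 were lower and 2 higher, with Rgs11 (-1.53), Rgs14 (-1.41) and Rgs4 (-1.36) beside Rgs9, and Rgs19 (0.69) and Rgs13 (1.75, included through R6/1-RGFP109 alone) in the other direction. Of 16 phosphodiesterases, 5 were lower and none higher. Of 11 serotonin receptors, 7 were lower and none higher, among them Htr2a (6.15 and 2.36 FPKM, -1.36) and Htr1b (15.1 and 5.91 FPKM, -1.34). At 1 FPKM in both groups 6 of 9 were lower. Gabrd, the delta subunit of extrasynaptic GABA-A receptors, had 78.0 and 28.4 FPKM (-1.45). It was the lone lower member among 14 GABA-A subunits, and 2 were higher, 1 of them included through R6/1-RGFP109 alone. Of 17 ionotropic glutamate receptor subunits, 2 were lower, Grin2c (-0.92) and Grik2 (-0.70), a share near that of all genes, and Grin3a was close to equal (-0.07). Of 7 metabotropic glutamate receptors, 3 were lower, led by Grm2 (6.83 and 2.67 FPKM, -1.34). Among 25 collagens 10 were lower and 1 higher, 3 of the lower ones included through WT-RGFP109 alone. Of the 21 collagens at 1 FPKM in both groups, 7 were lower and 1 higher.

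**Figure D3:**
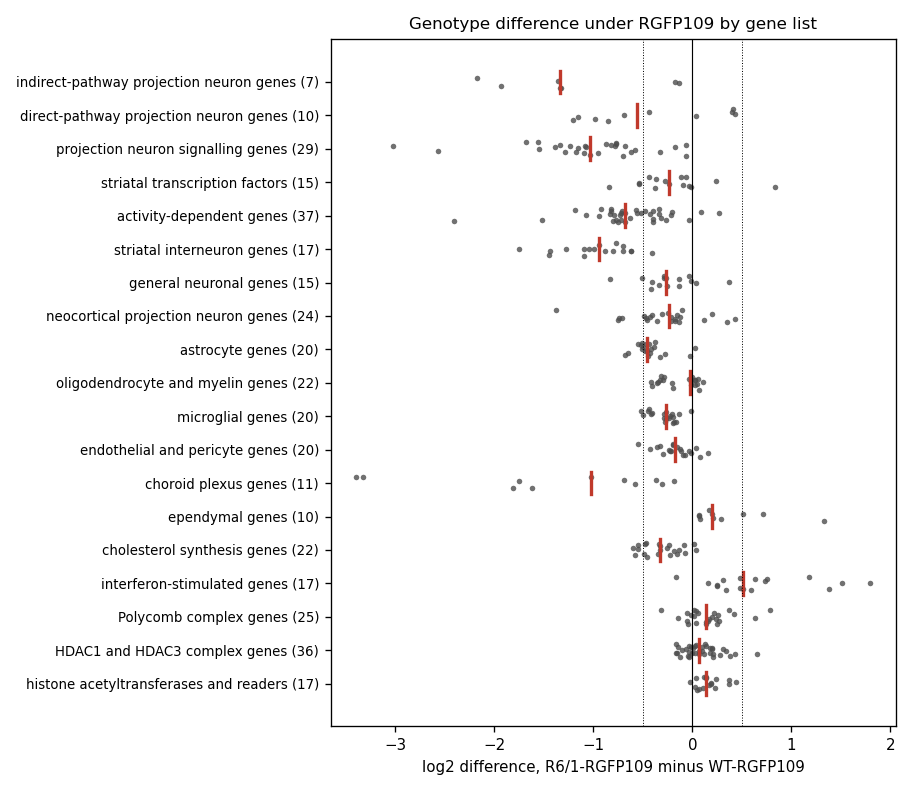
Log2 difference of R6/1-RGFP109 against WT-RGFP109 for each gene of 19 lists, with the number of included genes in parentheses. Grey points are genes, red bars list medians and dotted lines the call of 0.5; most neuronal lists lie to the left with medians down to -1.34, and interferon-stimulated genes lie to the right, 4 of them included through R6/1-RGFP109 alone.

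Fewer genes were higher than lower in R6/1-RGFP109. Among genes at 5 FPKM or more, small RNA genes left out, the 15 most positive ran from 0.79 to 1.34, and the 15 most negative from -6.84 to -1.93. Polr2a, the largest subunit of RNA polymerase II (chromosome 11, 69733999 to 69758633 of mm10), had 15.1 and 27.6 FPKM (0.87). Nfya, a subunit of the CCAAT-binding factor NF-Y, had 7.91 and 15.5 FPKM (0.97). Atad2b, a bromodomain protein (0.97), Asl, argininosuccinate lyase (0.86), Ece2, an endothelin-converting enzyme homologue (0.79), and Myl6b, a myosin light chain (0.91), were of similar size. AW551984 had the largest difference, with 3.80 and 9.69 FPKM (1.34).

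Interferon-stimulated genes respond to type I interferon and viral nucleic acid. Of 17 included, 9 were higher and none lower, but 4 of the 9 reached 1 FPKM in R6/1-RGFP109 alone and so had to differ. Of the 13 at 1 FPKM in both groups, 5 were higher, against 2.46% of all such genes, with a median of 0.48. Usp18, a negative regulator of the pathway and among the 4, had 0.482 and 1.80 FPKM (1.79), and the same holds for Oasl2, which had 0.816 and 2.42 FPKM (1.51), and for the transcription factor Irf7, which had 0.723 and 1.95 FPKM (1.37). Ifit3, an interferon-induced antiviral protein, had 2.72 and 4.56 FPKM (0.73). Ifi27l2a, an interferon-inducible gene outside the list, had 3.18 and 7.85 FPKM (1.29). These levels were low, and the other 5 of the 22 listed genes did not reach 1 FPKM in either group. With vehicle 8 of the 17 were higher, with a median of 0.45.

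Of 11 replication-dependent histone genes that were included, 5 were higher and none lower, with Hist2h2bb at 1.07 and 3.09 FPKM (1.49). Of these, 2 reached 1 FPKM in R6/1-RGFP109 alone. Of the 9 at 1 FPKM in both groups 3 were higher, against 2.46% of all such genes, with a median of 0.14. The other 56 of the 67 histone genes in the table were below 1 FPKM in both groups. Histone genes are near-identical copies whose messages lack a poly(A) tail, and reads can be split among them, so single members are uncertain. Of 51 clustered protocadherins, adhesion molecules that give neurons a surface identity, 13 were higher and none lower, 5 of them through R6/1-RGFP109 alone. Of the 46 at 1 FPKM in both groups, 8 were higher, with a median of 0.29. Many of them are listed at a locus shared by 63 genes, and single members are again uncertain. With vehicle 17 protocadherins were higher. The Hox genes, whose silencing by Polycomb is a mark of forebrain identity, gave no gene at 1 FPKM in either group among 39 in the table.

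The targets of RGFP109 and the complexes that hold them showed little difference between genotypes. Hdac3 had 59.7 FPKM in both groups (0.00), Hdac2 had 55.2 and 62.5 FPKM (0.18), and Hdac1 had 3.09 and 3.93 FPKM (0.34). The list of 36 genes held 4 deacetylases, Hdac8 among them, and members of the NCoR, SIN3, NuRD and CoREST complexes. None was lower and 1 was higher, Sap30 of the SIN3 complex (4.02 and 6.33 FPKM, 0.65). Among 17 acetyltransferases and acetyl-lysine readers, none was called, and 16 of 17 differences were above 0, with Crebbp, the CREB-binding protein, at 7.78 and 10.6 FPKM (0.44) and Ep300 at 9.63 and 12.4 FPKM (0.36). Of 25 Polycomb genes, 2 were higher and none lower, where 3.81% of all genes were higher. Cbx8 had 7.39 and 12.7 FPKM (0.78). Sirt7 was the lower member among 14 other deacetylases, with 31.4 and 22.1 FPKM (-0.50 to the second decimal, just past the call).

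Mouse Htt itself had 17.6 and 18.8 FPKM (0.10). The transgene is human exon 1, and reads from it were not separable in a table of mouse genes, so the genotype labels have no direct check here. As a check of sex, Xist was at 0.02 FPKM in both groups, below inclusion, and the Y-linked genes Eif2s3y (30.0 and 35.3 FPKM), Ddx3y, Kdm5d and Uty were present in both, as labelled male mice would have. Of 15 DNA repair genes linked to instability of CAG repeats, none was called, with a median of 0.17, and Msh3 had 8.74 and 9.12 FPKM (0.06). Among 19 chaperones, Hspa8 (109 and 155 FPKM, 0.51) was higher and Hspb8 (11.1 and 7.46 FPKM, -0.57) lower.

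Genes of chromosome X were displaced upward as a group. Among genes at 5 FPKM or more without small RNA genes, the median of 327 genes of chromosome X was 0.13, and the medians of single autosomes lay between -0.04 and 0.04, with differences on the log2 scale. On chromosome X 1.22% of genes were lower and on autosomes between 3.84% and 10.1%. A stretch of chromosome X between 133891070 and 136976874 of mm10 held 31 such genes, of which 8 were higher and none lower, with a median of 0.40. It holds the Armcx, Gprasp, Bex and Tceal genes, related families expressed in neurons, and Gprasp2 (44.2 and 77.9 FPKM, 0.82), Trmt2b (6.06 and 10.8 FPKM, 0.83) and Rab9b (8.79 and 14.5 FPKM, 0.72) were among the higher genes. The stretch was chosen after its values were seen. Outside the stretch the median of the chromosome X genes was 0.12. With vehicle the median was 0.44 in the stretch and 0.15 outside it. Related families in this stretch share sequence, so single members are uncertain.

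Of 20 astrocyte genes, 6 were lower and none higher, where 9.29% of all genes were lower. Their median was -0.45, and 19 of 20 were below 0. Slc1a2, the main glutamate transporter, had 297 and 185 FPKM (-0.68), Glul, glutamine synthetase, had 509 and 357 FPKM (-0.51), and Aqp4, the water channel of astrocyte endfeet, had 21.1 and 14.4 FPKM (-0.55). Gfap had 50.02 and 38.3 FPKM (-0.39). Of 20 microglial genes 1 was lower, Fcrls (-0.52), a share below that of all genes, and all 20 were below 0, with a median of -0.27. Of 20 endothelial and pericyte genes 1 was lower, again below the share of all genes. It was Cldn5, the tight junction claudin of the blood-brain barrier (11.96 and 8.15 FPKM, -0.55). In cholesterol synthesis, of which astrocytes and oligodendrocytes carry most in the adult brain, 4 of 22 genes were lower, with a median of -0.32. Among 12 genes of the insulin-like growth factor system 3 binding proteins were lower, Igfbp4 (32.6 and 14.4 FPKM, -1.18), Igfbp5 (-0.82) and Igfbp2 (-0.75), and the receptor Igf1r had 5.45 and 5.97 FPKM (0.13).

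Oligodendrocyte genes gave a different picture with drug and with vehicle. Under RGFP109 none of 22 was called and the median was -0.02. Mbp, myelin basic protein, had 2322 and 1847 FPKM (-0.33), and Mog, a surface glycoprotein of myelin, had 66.3 and 67.6 FPKM (0.03). With vehicle, 12 of the same 22 were lower, with a median of -0.55. Mbp then had 3028 FPKM in WT-vehicle and 1611 FPKM in R6/1-vehicle (-0.91), and Mog had 84.5 and 64.0 FPKM (-0.40). All 22 genes had the less negative or more positive difference under RGFP109. In the tables that compare treatments directly, the median of the list was -0.35 for WT-RGFP109 against WT-vehicle and 0.10 for R6/1-RGFP109 against R6/1-vehicle. The genes share a cell type, so their common direction does not count as 22 separate observations, and the difference between the contrasts was not tested.

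**Figure D4:**
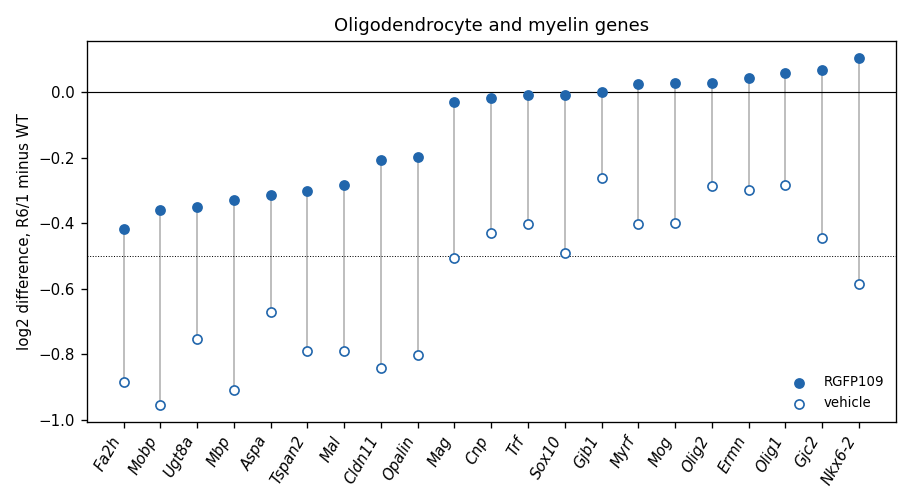
Log2 difference of R6/1 against WT for 21 oligodendrocyte and myelin genes, filled circles under RGFP109 and open circles with vehicle, joined by a grey line per gene. The dotted line is the call of -0.5, which 11 of the genes drawn pass with vehicle and none under RGFP109.

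Marker genes of tissues next to the striatum also differed between the groups. Of the choroid plexus genes Ttr, the thyroxine carrier transthyretin, is the most abundant. They were lower in 8 of 11 included genes, 3 of them included through WT-RGFP109 alone, where 9.29% of all genes were lower. All 20 listed genes, included or not, had differences below 0. The 20 listed genes summed to 451 FPKM in WT-RGFP109, 118 FPKM in R6/1-RGFP109, 1779 FPKM in WT-vehicle and 786 FPKM in R6/1-vehicle. Ttr had 306 and 30.5 FPKM under RGFP109 (-3.32) and 1443 and 606 FPKM with vehicle (-1.25). Both RGFP109 groups were thus below both vehicle groups, and levels set across tables carry a scaling difference of at most 3.92% here. Olfactory genes as a sum were higher in WT-RGFP109 than in the other groups. Of 5 included, 4 were lower, 1 of them included through WT-RGFP109 alone. Dcx had a positive difference short of the call (0.36). Of the 9 listed genes with values, included or not, 7 had differences below 0. The listed genes summed to 32.4, 15.3, 16.7 and 13.5 FPKM in the same order of groups. Omp, the marker protein of olfactory sensory neurons, had 5.56 FPKM in WT-RGFP109 and 0.0865 FPKM in R6/1-RGFP109 (-5.36), but 0.162 and 0.126 FPKM with vehicle. S100a5, which the same neurons express, had 35.4 and 0.259 FPKM, the largest difference among the genes at 5 FPKM or more (-6.84), and was listed at 0 in WT-vehicle and at 0.112 FPKM in R6/1-vehicle. Tbx21, a mitral cell factor, was at 0.0418 FPKM in WT-RGFP109.

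Neocortical projection neuron genes summed to 806 and 612 FPKM under RGFP109 and to 852 and 557 FPKM with vehicle. Of 24, 4 were lower under RGFP109 and 14 were lower and 1 higher with vehicle, with medians of -0.23 and -0.67. Of all genes, 9.29% were lower under RGFP109 and 10.8% with vehicle. Slc17a7, the vesicular glutamate transporter of cortical neurons, had 278 and 201 FPKM under RGFP109 (-0.47) and 297 and 161 FPKM with vehicle (-0.89). Neurod2 (0.20 against -0.61), Neurod6 (-0.16 against -0.75), Tbr1 (-0.13 against -0.69) and Emx1 (-0.13 against -0.89) were also closer to 0 or positive under RGFP109. In all, 18 of the 24 had the less negative or more positive difference under RGFP109, and 6 did not, among them Lamp5 (-0.74 against -0.42), Cux2 (-0.22 against 0.13) and Slc17a6 (-0.25 against 0.68). Slc17a6, the member that was higher with vehicle, is also in the thalamic list and is not particular to neocortex. Hypothalamic neuropeptide genes summed to 50.8 and 34.8 FPKM under RGFP109 and to 54.1 and 15.0 FPKM with vehicle. Ependymal genes summed to 37.7 and 46.0 FPKM under RGFP109 and to 59.0 and 50.6 FPKM with vehicle. Under RGFP109, 3 of 10 were higher, where 3.81% of all genes were higher. Thalamic genes summed to 57.4 and 40.4 FPKM under RGFP109 and to 45.4 and 39.9 FPKM with vehicle, and meningeal genes to 65.5 and 56.2 FPKM and to 91.3 and 77.4 FPKM. The part of these tissues in the differences of other lists was not tested. The striatal signalling genes were 25 of 29 lower under RGFP109 and 23 of 29 with vehicle, with medians of -1.04 and -1.07.

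The genotype difference under RGFP109 was then set beside that with vehicle. The vehicle table gave 13886 genes at 1 FPKM or more, of which 1504 were lower (10.8%) and 590 higher (4.25%), and 463 (3.33%) and 175 (1.26%) at the stricter call. Over the 13652 genes included in both tables, 1192 were lower under RGFP109 and 1403 with vehicle, and 916 were lower in both, which is 76.8% of the first list and 65.3% of the second. Of the higher genes, 459 and 535, 249 were shared, 54.2% and 46.5% of each list. At the stricter call 231 lower and 55 higher genes were shared. Genes past the call in opposite directions numbered 97, of which 92 were small RNA genes. Restricted to the 9813 genes at 5 FPKM or more in both tables and without small RNA genes, 540 of 648 genes lower under RGFP109 were lower with vehicle (83.3%) and 640 were below 0, and 81 of 117 higher genes were higher with vehicle (69.2%) and 115 were above 0. The 2 differences lay within 0.25 of each other for 93.1% of these genes, with a Pearson correlation across genes of 0.84, where genes are not independent.

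**Figure D5:**
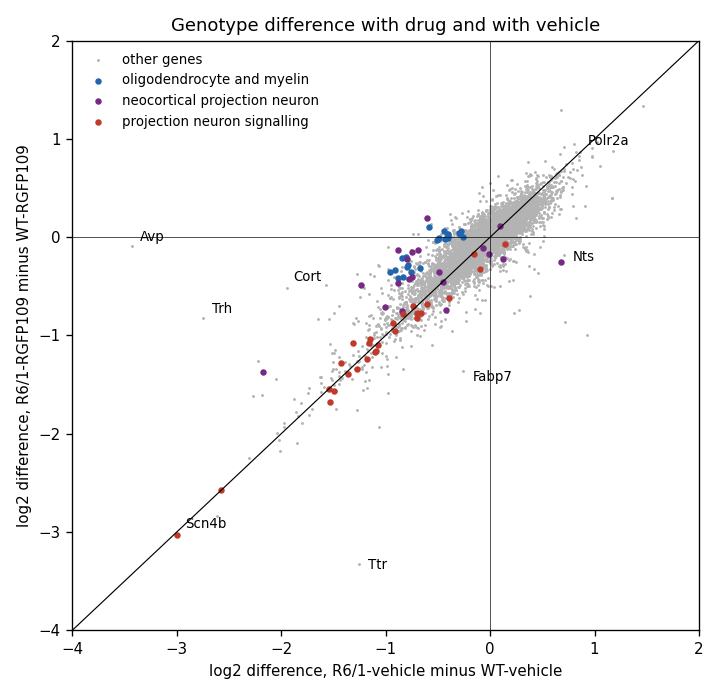
Log2 difference of R6/1 against WT under RGFP109 (vertical) and with vehicle (horizontal) for 9813 genes at 5 FPKM or more in both tables, with the line of equal differences; 3 genes lie outside the axes. Projection neuron signalling genes lie along the line, and all 22 oligodendrocyte and myelin genes lie above it.

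The difference was more than 0.5 more negative under RGFP109 for 275 of the 13652 genes and more than 0.5 more positive for 360. At 5 FPKM or more without small RNA genes, the counts were 41 and 65. Avp, the vasopressin precursor, had the most positive shift among genes with a value in all 4 groups, with 9.73 and 9.11 FPKM under RGFP109 (-0.09) and 11.1 and 0.983 FPKM with vehicle (-3.43). Trh, the thyrotropin-releasing hormone precursor, had 8.70 and 4.89 FPKM under RGFP109 (-0.83) and 14.7 and 2.15 FPKM with vehicle (-2.75). Cort, the cortistatin precursor of cortical interneurons, had 13.6 and 9.53 FPKM (-0.51) and 16.1 and 4.14 FPKM (-1.95). Nxph3, a neurexophilin that binds neurexins, had 12.5 and 8.92 FPKM (-0.48) and 16.3 and 5.42 FPKM (-1.58). Cplx3, a complexin (-1.37 against -2.18), Npas4 (-0.83 against -1.65), Myl4 (-1.26 against -2.22) and Ramp3 (-0.10 against -0.97) were also among the 10 largest positive shifts. Avp and Trh belong to the hypothalamic list given above and Cplx3 to the neocortical list. The part of these tissues in the shifts was not tested. Gm38670 was listed at 0 in R6/1-vehicle and gives no usable difference there.

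Of the named genes with a more negative difference under RGFP109, S100a5, Omp and Ttr are given above with their tissues. Fabp7, the brain fatty acid-binding protein of radial glia and olfactory ensheathing glia, had 74.4 and 28.9 FPKM under RGFP109 (-1.36) and 40.9 and 34.1 FPKM with vehicle (-0.26). Ndufs5, a subunit of respiratory complex I, shares its locus with another gene and had 23.9 and 14.3 FPKM under RGFP109 (-0.74) and 26.1 and 31.5 FPKM with vehicle (0.27). Spp1, osteopontin, had 8.14 and 5.35 FPKM (-0.60) and 6.38 and 8.32 FPKM (0.38). Nts, the neurotensin precursor, had 14.5 and 12.8 FPKM (-0.18) and 7.17 and 11.7 FPKM (0.71), and Slc17a6, the vesicular glutamate transporter of thalamus and hypothalamus, had 6.11 and 5.14 FPKM (-0.25) and 3.89 and 6.25 FPKM (0.68). Snhg9, a small nucleolar RNA host gene, gave -0.78 under RGFP109 and 0.23 with vehicle. AF357425, in a locus shared by 11 genes, was listed at 0 in WT-vehicle and gives no usable difference there.

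Genes that the study names in its RNA sequencing results were examined too, and since they were chosen on these same mice their direction is no independent evidence. Of 31 included, 13 were lower and 1 higher under RGFP109, and 21 and 4 with vehicle. Nr4a2, a nuclear receptor gene of dopamine and cortical neurons, had a difference of -0.40 under RGFP109 and -1.11 with vehicle. Chrna4, a nicotinic receptor subunit, gave -0.32 and -0.98, and Adra2a, an alpha-2 adrenergic receptor, gave -0.35 and -0.75. Drd3, the dopamine D3 receptor, had 1.74 and 1.37 FPKM under RGFP109 (-0.33), and its 0.788 and 1.64 FPKM with vehicle gave 1.01. Other genes of dopamine signalling in these neurons had closer values in the 2 contrasts. Drd1 gave -1.21 under RGFP109 and -0.99 with vehicle, Drd2 -1.33 and -1.25, Adora2a -1.93 and -1.97, and Ppp1r1b -1.39 and -1.36. Polr2a gave 0.87 and 0.86.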

How the data were processed

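RNA of 24 striata (5 WT-vehicle, 6 R6/1-vehicle, 6 WT-RGFP109 and 7 R6/1-RGFP109) was made into TruSeq libraries, which do not mark strand, and sequenced as single reads in 2 pools. The authors aligned reads to mm10 with STAR 2.5.0b and ran Cufflinks and Cuffdiff 2.2.1 with RefSeq genes (versions per the submitters' processing notes and the study's methods). The deposited tables hold 1 FPKM value per gene and group, scaled by the authors within each compared pair, so that a group's values differ between tables by a common factor of 0.132% to 3.92%. Counts, values per mouse and depth were not analysed here, and nothing says which mice were in which pool. The columns of the authors' own comparison (log2 fold change, test statistic, p-value, q-value and significance) were not used.

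From the FPKM values, log2((R6/1 + 0.05)/(WT + 0.05)) was computed with Python 3.11.15, numpy 2.4.6 and pandas 2.3.3, and the computation was checked on simulated data. With 1 pooled value per group no test was run. Genes at 1 FPKM or more in either group were included, and a difference past 0.5 was called. Named genes were the 15 most negative and 15 most positive at 5 FPKM or more without small RNA genes, up to 6 genes of each described list by size of difference with its defining members, the 10 largest differences between the contrasts in each direction, genes named in the study, and huntingtin, deacetylase and sex-linked genes. Genes of the chromosome X stretch, Oxt and a few members of lists and families were named after their values were seen. The members and gene lists were chosen with earlier results of these data known, and patterns for ribosomal and glutamate receptor genes were narrowed after the tables were read. Promoter windows are those of RefSeq on GRCm38.p6. The alternatives tried were pseudocounts of 0.5 and 1, an FPKM minimum of 5 or none, a call past 1, centring on the median, a comparison through another group, and leaving out small RNA genes. Counts over genes at 1 FPKM in both groups were added after seeing the data. Some genes are not reported here.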

Additional observations from a re-analysis of the deposited data

Results flagged for a closer look

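In 2 transcripts the genotype difference was past 0.5 on the log2 scale in both treatments and in opposite directions, among genes at 5 FPKM or more in both tables with symbols of small RNAs left out. AF357426 had 218 FPKM in WT-RGFP109 and 120 FPKM in R6/1-RGFP109 (-0.86 on the log2 scale) but 107 FPKM in WT-vehicle and 177 FPKM in R6/1-vehicle (0.72), so that the differences were -1.58 apart. Gm38671 had 30.4 and 15.3 FPKM under RGFP109 (-0.99) and 8.34 and 15.9 FPKM with vehicle (0.92), which were -1.92 apart. AF357426 lies in a locus shared by 11 genes and Gm38671 in a locus shared by 2. Small RNAs were recognised only by the start of their symbols, so those under other symbols would remain. Whether these 2 transcripts are small RNAs was not examined. Each group has 1 value, and the difference was not tested.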

How the results depend on the processing

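No called difference among 541 named genes and 51 list medians changed its direction under the alternatives below, of which the minimum of 5 FPKM covered 435 of the genes. Calls were lost for 18 genes and 3 lists with a pseudocount of 1, for 6 genes and 1 list with a pseudocount of 0.5, for 3 genes and 1 list after median centring, for 1 list each with the minimum of 5 FPKM and with none, and for 109 genes and 7 lists with a call past 1. With the pseudocount of 0.05, FPKM of 1 and call of 0.5 used above, 1288 genes were lower and 528 higher under RGFP109, 1504 and 590 with vehicle, 916 and 249 in both, and the contrasts differed by more than 0.5 downward in 275 genes and upward in 360. With a pseudocount of 1, 315 genes were higher under RGFP109, 371 with vehicle and 142 in both, and the contrasts differed in 176 and 225. With a minimum of 5 FPKM the counts, in the order just given, were 822, 267, 965, 327, 588, 125, 150 and 183. With no minimum they were 2377, 1178, 2742, 1291, 1428, 459, 1122 and 1327. With a call past 1 they were 389, 177, 463, 175, 231, 55, 115 and 124. Without small RNA genes, an alternative chosen after seeing the data, the contrasts differed in 159 and 228. A pseudocount of 0.5, centring on the median and a comparison through another group left each of these counts within 1.5 times its value. Lower genes made up 66.9% to 75.9% of the called genes under RGFP109 across the alternatives. Leaving out single mice was not possible, because each group has 1 pooled value. No paired analysis was possible because the tables hold no values per mouse. Depth is unknown, so no counting error can be given, and genes near 1 FPKM carry the least certain differences.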

Other observations

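Housekeeping families were nearly level between genotypes under RGFP109. Of 72 cytosolic ribosomal protein genes, 1 was lower and 2 were higher. Of 80 nuclear subunits of oxidative phosphorylation, 3 were lower, among them Cox6a2 (13.2 and 7.36 FPKM, -0.84) and Cox8b (2.78 and 1.62 FPKM, -0.76), both isoforms best known from striated muscle. None of 37 proteasome subunits was called. Ribosomal protein genes have many processed copies, so single members are uncertain.

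Other families held a few large differences. Among 9 voltage-gated sodium channel genes, Scn9a, known from sensory neurons, had 0.950 and 2.495 FPKM (1.35) and with vehicle a difference of 1.44. It was included through R6/1-RGFP109 alone. Among neurotrophin and GDNF family receptors 3 of 7 were lower, where 9.29% of all genes were lower. Ngfr, the p75 receptor of basal forebrain cholinergic neurons, had 3.17 and 1.40 FPKM (-1.16) and gave -0.25 with vehicle. Syt2, a calcium sensor of fast synapses, had 11.8 and 3.88 FPKM (-1.59) and -0.98 with vehicle. Oxt, the oxytocin precursor, had 0.990 and 2.45 FPKM under RGFP109 (1.27) and was also included through R6/1-RGFP109 alone. With vehicle it had 0.478 and 0.117 FPKM and did not reach 1 FPKM in either group. These differences were not tested.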
